A study of Rattus norvegicus with 18 samples.

Results

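The matrix metalloproteinases Mmp2, Mmp3, Mmp9, Mmp13, and Mmp14 and the tissue inhibitors of metalloproteinases Timp1, Timp2, and Timp3 were followed through fracture healing in the rat femur. These 8 genes, 5 enzymes and 3 inhibitors, were taken by symbol, and all probe sets annotated to them were kept. They had 10 probe sets of the 8799 on the array, and all 10 were among the 4669 probe sets bright enough to be tested, where brightness meant a signal that reached 200 on 3 arrays or more. Mmp2 and Timp1 had a pair of probe sets each, and each gene stood for the probe set with its highest mean signal.

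The animals were female Sprague-Dawley rats of 6 weeks (young), 26 weeks (adult), and 52 weeks (older) at surgery. A rod was placed in the medullary canal, the femoral shaft was broken, and bone was taken at 3 days, 1 week, 2 weeks, 4 weeks, and 6 weeks. The no-fracture rats were sham controls of the same 3 ages at time 0. No unfractured rats were taken at the later times. A change with time after fracture therefore cannot be told apart from growth or aging since surgery. Each segment of mid-femur held callus, cortical bone, and marrow together. Each of the 18 arrays carried a pool from 2 rats. Every age had 1 array at every time, so that a time point had 3 arrays that differ in age. With age as a term of the fit, its p-values are set by how much the change with time varies between ages. In such whole tissue, more cells of a type cannot be told apart from more mRNA per cell.

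Matrix metalloproteinases are zinc enzymes that cut collagens, proteoglycans, and other proteins of the extracellular matrix, and most are made as inactive precursors. In a healing fracture they open cartilage to blood vessels, clear calcified cartilage, and remodel the first woven bone. The tissue inhibitors bind the active enzymes and stop them, and Timp2 also takes part in activating the Mmp2 precursor on the cell surface together with Mmp14. An array reports the mRNA of these proteins, not their activity.

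Signals are in arbitrary intensity units, with the same average of 500 for all arrays. The median signal of an array was 137.2 to 182.6. The 5' to 3' signal ratio of Gapdh, a sign of intact RNA, was low on 1 array, that of young rats at 6 weeks (0.257), while the other 17 had 0.650 to 0.913. The same ratio of actin was 0.446 on that array, within the 0.372 to 0.842 of the others. Markers of callus tissue were present after fracture. The summed signal of 6 cartilage markers was 17131.7 to 24540.2 at 2 weeks, against 264.5 to 2218.0 without fracture. That of 5 osteoblast markers was 60019.0 to 74307.8 at 2 weeks, against 18375.5 to 52166.5 without fracture. Muscle mRNA was also present. The sum of 8 muscle markers was 44285.2 to 67107.6 at 3 days, where 8 of 8 were down-regulated, against 98561.3 to 202692.1 without fracture. The signal of a gene below shows its level relative to the rest of the RNA on the array.

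**Figure D1:**
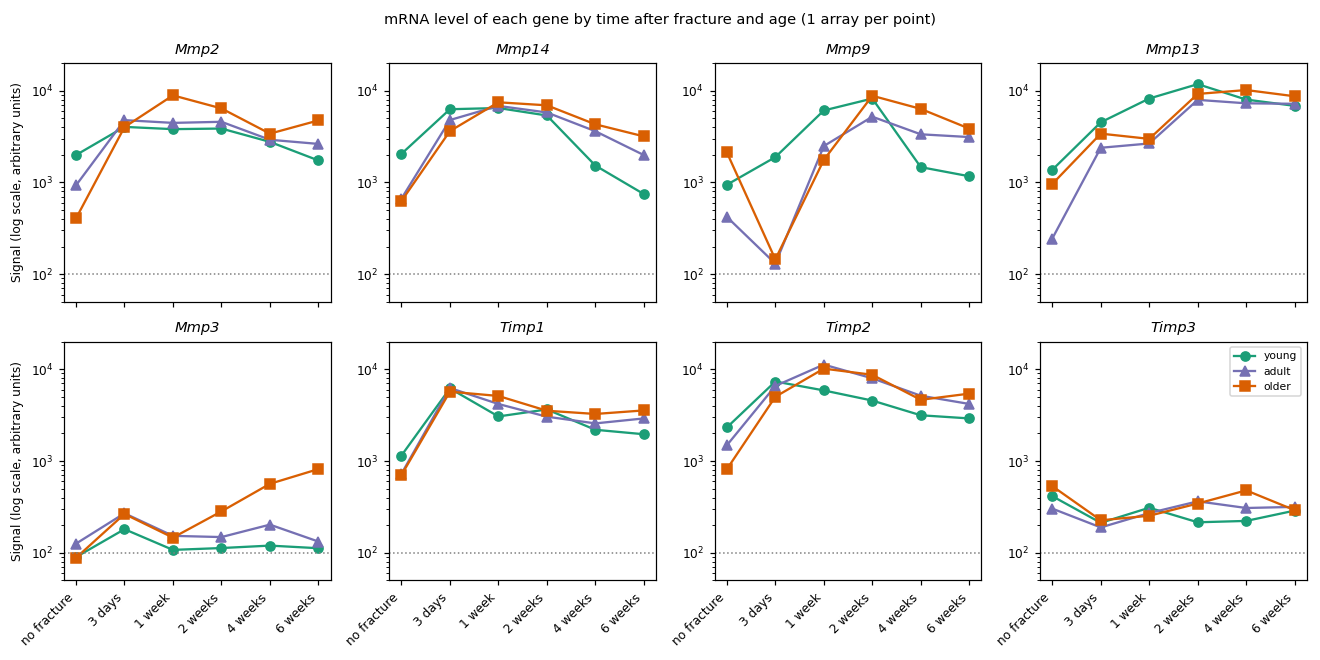
mRNA level of the 5 metalloproteinases and 3 inhibitors on each of the 18 arrays. The signal is on a log axis, the horizontal axis runs from no fracture to 6 weeks after fracture, each point is 1 array of 2 pooled rats, lines join the arrays of an age, and the dotted line is the floor of 100 used before log2. Mmp13 was at 6834.1 or more on every array of 2, 4, and 6 weeks, Mmp3 reached 816.6 in older rats at 6 weeks, and Mmp9 was at 130.3 and 145.2 in adult and older rats at 3 days.

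Mmp13, the main collagenase of rodent bone and cartilage, had the largest fold changes of the 8 genes from 2 weeks onward and did not return to the no-fracture level by 6 weeks. Its signal in young, adult, and older rats was 1372.0, 244.7, and 962.1 without fracture, 4523.4, 2387.1, and 3404.0 at 3 days, and 8217.3, 2658.4, and 2984.6 at 1 week. It was 11784.9, 7941.7, and 9220.4 at 2 weeks, 7997.5, 7285.6, and 10164.7 at 4 weeks, and 6834.1, 7197.8, and 8691.3 at 6 weeks. All 15 arrays after fracture lay above all 3 arrays without fracture. The fold change was 4.85 at 3 days (log2 2.28 ± 0.39 SE, limma adjusted p = 0.000335) and 13.9 at 2 weeks (log2 3.79 ± 0.39, limma adjusted p = 6.42e-05). It was still 11.0 at 6 weeks (log2 3.46 ± 0.39, limma adjusted p = 0.000498). In order of mean signal, 2 weeks (9649.0 ± 1957.1 SD, n = 3) stood above 4 weeks (8482.6 ± 1499.6) and 6 weeks (7574.4 ± 984.2), but the ranges of these neighbors overlapped. At 6 weeks the level was 58.0% of its own peak in young rats, 90.6% in adult rats, and 85.5% in older rats. The young 1 week array stood apart from the other ages at 1 week, at 2.75 times the older array.

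Mmp3, stromelysin-1, which cuts proteoglycans and activates other metalloproteinase precursors, was dim. Its signal in young, adult, and older rats was 89.7, 125.7, and 88.0 without fracture, 180.7, 269.2, and 264.7 at 3 days, and 107.5, 152.9, and 146.3 at 1 week. It was 112.6, 148.3, and 282.5 at 2 weeks, 119.7, 202.6, and 564.3 at 4 weeks, and 112.1, 132.5, and 816.6 at 6 weeks. The 3 arrays at 3 days did not overlap the 3 arrays without fracture, as was so for 2389 of all 4669 probe sets. The Mmp3 change missed the threshold (log2 1.12 ± 0.47, limma adjusted p = 0.0632). Young and adult rats were highest at 3 days and older rats at 6 weeks. The older 6 weeks array carried the highest Mmp3 signal of all 18.

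Mmp13 and Mmp3 lie on chromosome 8 in the rat assembly GRCr8 with 3 annotated genes between them, of which Mmp12 and Mmp1b are also metalloproteinases. The stretch from 150 to 21 bases before the annotated transcript start of each is shown because these neighboring genes share an upstream motif while their mRNA levels took different courses. Both are RefSeq sequence of GRCr8, plus strand, at chr8:12782679-12782808 for Mmp13 and chr8:12925131-12925260 for Mmp3. Capitals mark the letters TGANTCA, the binding motif of the AP-1 factors Fos and Jun, searched on both strands.
Mmp13: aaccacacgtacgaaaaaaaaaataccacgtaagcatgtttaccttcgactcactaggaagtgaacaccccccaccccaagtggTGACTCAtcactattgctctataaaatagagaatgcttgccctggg
Mmp3: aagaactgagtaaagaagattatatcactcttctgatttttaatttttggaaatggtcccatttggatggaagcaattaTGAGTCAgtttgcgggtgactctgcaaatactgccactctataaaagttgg
The motif began 66 bases before the start in Mmp13 and 71 bases before it in Mmp3. Among 33469 rat promoters, 6.34% held it within 250 bases upstream. Both genes also had TATAAA, found in 12.9% of promoters, downstream of that motif. Mmp13 alone of this pair had TGTGGT, a core of the motif of Runx factors found in 14.5% of promoters, read on the minus strand 149 to 144 bases before the start. The upstream sequences of Timp1, Timp2, and Timp3 held none of these letters in this window. A match of letters is a description and not a measured binding site.

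Mmp2, gelatinase A, which degrades denatured collagen, was up-regulated at 3 days and stayed up through 4 weeks. The signal of its brighter probe set (U65656_at) in young, adult, and older rats was 1988.9, 929.8, and 405.2 without fracture, 4031.9, 4775.2, and 4009.4 at 3 days, and 3809.2, 4457.1, and 8892.8 at 1 week. It was 3867.3, 4580.4, and 6408.9 at 2 weeks, 2768.5, 2918.3, and 3402.2 at 4 weeks, and 1736.8, 2629.4, and 4741.5 at 6 weeks. Only the young array of 6 weeks fell among the no-fracture arrays. The fold change was 4.69 at 3 days (log2 2.23 ± 0.47, limma adjusted p = 0.0016), 5.86 at 1 week (adjusted p = 0.00111), and 3.32 at 4 weeks (adjusted p = 0.0399). At 6 weeks it was 3.07, which missed the threshold (limma adjusted p = 0.0651). The other Mmp2 probe set (X71466_at) disagreed, with signals of 142.1 to 360.3 over the 18 arrays and no call in any of the 13 comparisons.

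Mmp14, the membrane-bound metalloproteinase that activates the Mmp2 precursor, rose and then returned toward its no-fracture level. Its signal in young, adult, and older rats was 2048.0, 666.0, and 627.0 without fracture, 6279.4, 4788.5, and 3627.2 at 3 days, and 6473.3, 6823.7, and 7471.5 at 1 week. It was 5365.8, 5789.0, and 6927.5 at 2 weeks, 1528.0, 3616.9, and 4300.2 at 4 weeks, and 747.0, 1987.7, and 3178.1 at 6 weeks. All ages peaked at 1 week, where the fold change was 7.28 (log2 2.86 ± 0.51, limma adjusted p = 0.000809). At 4 and 6 weeks the young arrays lay within the no-fracture range, as did the adult array at 6 weeks, and the change was not called at either time (limma adjusted p = 0.0781 and 0.403). At 6 weeks Mmp14 was at 11.5% of its peak in young rats, 29.1% in adult rats, and 42.5% in older rats.

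Mmp9, gelatinase B, which osteoclasts and neutrophils carry, followed the least uniform course across ages. Its signal in young, adult, and older rats was 943.4, 421.3, and 2125.5 without fracture, 1887.5, 130.3, and 145.2 at 3 days, and 6087.1, 2491.7, and 1758.3 at 1 week. It was 8208.4, 5205.5, and 8804.3 at 2 weeks, 1468.4, 3347.4, and 6332.9 at 4 weeks, and 1167.8, 3123.5, and 3861.2 at 6 weeks. The 2 weeks arrays were the peak of every age. They did not overlap the no-fracture arrays, as was so for 1336 of all 4669 probe sets. The Mmp9 change at 2 weeks was 7.64-fold (log2 2.93 ± 0.85, limma adjusted p = 0.0219), and it was the only time at which Mmp9 passed the threshold. The call was lost without the 2 weeks array of any one age, without the young or adult no-fracture array, without the adult rats, with no filter on low signals, and by the ordinary test of the study's methods. At 3 days the log2 difference from the same age without fracture was 1.00 in young rats, -1.69 in adult rats, and -3.87 in older rats, and over the 3 ages it was not called (log2 -1.52 ± 0.85, limma adjusted p = 0.157).

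Markers of neutrophils and of osteoclasts moved in opposite directions after fracture. The summed signal of 5 neutrophil markers, among them S100a8 and S100a9, was 15058.4, 1354.2, and 3033.5 in young, adult, and older rats at 3 days, against 48566.5, 44220.3, and 85174.2 without fracture. All 5 were down-regulated at 3 days, 1 week, and 2 weeks. The summed signal of 4 osteoclast markers was 10498.7, 2909.7, and 2134.5 at 3 days and 29195.1, 24793.4, and 27391.7 at 2 weeks, against 3697.8, 888.6, and 1568.0 without fracture. The young array thus had the highest neutrophil sum, the highest osteoclast sum, and the highest Mmp9 signal of the 3 arrays at 3 days. At 1 week the older array had the highest neutrophil sum (6418.0) and the lowest Mmp9 signal. At 4 and 6 weeks the young arrays had the highest neutrophil sums (30541.8 and 61080.5) and the lowest Mmp9 signals. Without fracture the older array was highest for both. The arrays highest in osteoclast sum were also highest in Mmp9 at 1, 4, and 6 weeks, but not at 2 weeks or without fracture. Of the osteoclast markers only Acp5 and Ctsk were bright enough to be tested, and both were up-regulated from 1 week to 6 weeks. At 3 days Acp5 was 2343.4, 479.5, and 303.9 in young, adult, and older rats, against 1670.2, 454.7, and 714.5 without fracture. Itgb3 was dim, with 180.3, 121.2, and 184.7 at 2 weeks against 144.0, 112.7, and 257.1 without fracture. Calcr lay below 100 on 17 of 18 arrays. The sum of 4 macrophage markers was highest in the young array at 3 days (6927.4) and in the older array at all other times. The array highest in this sum was also highest in Mmp9, except at 1 week, where the older array was lowest in Mmp9. The part of any of these cell types in the Mmp9 signal was not tested.

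**Figure D2:**
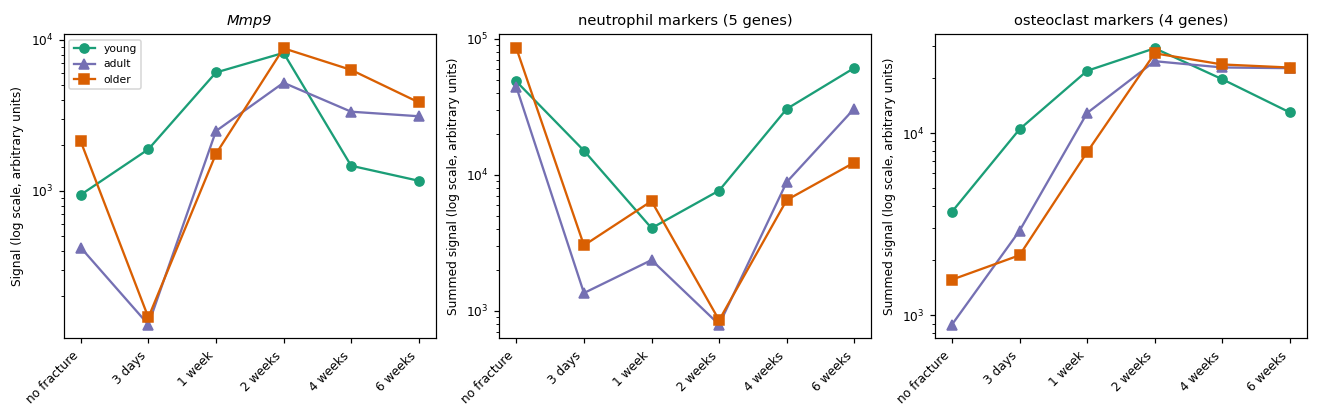
Signal of Mmp9 beside the summed signals of 5 neutrophil markers and 4 osteoclast markers on each of the 18 arrays, by time and age, all on log axes in arbitrary units. Each point is 1 array. Within each age the neutrophil markers were lowest between 3 days and 2 weeks, and Mmp9 and the osteoclast markers were both highest at 2 weeks.

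Timp1, an inhibitor of most secreted metalloproteinases, peaked at 3 days at all 3 ages and had the smallest SE of the 8 genes in the comparisons of times with no fracture. Its signal in young, adult, and older rats was 1146.9, 724.8, and 702.8 without fracture, 6180.9, 6248.1, and 5699.9 at 3 days, and 3060.4, 4183.0, and 5116.8 at 1 week. It was 3648.6, 3040.4, and 3532.4 at 2 weeks, 2189.9, 2570.5, and 3257.6 at 4 weeks, and 1958.0, 2911.8, and 3559.0 at 6 weeks. The 3 days arrays lay above every other array of the gene, and every array after fracture lay above those without. The fold change was 7.22 at 3 days (log2 2.85 ± 0.26, limma adjusted p = 6.58e-06) and 3.26 at 6 weeks (log2 1.71 ± 0.26, limma adjusted p = 0.00205). The other Timp1 probe set (rc_AI169327_g_at), of the same transcript, was also up-regulated at all 5 times, with fold changes of 25.1 at 3 days and 6.34 at 6 weeks. Both probe sets took the same course (Pearson r = 0.99 over 18 arrays) but not the same size of change.

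Timp2, the inhibitor that also bridges Mmp14 and the Mmp2 precursor, was up-regulated at every time. Its signal in young, adult, and older rats was 2320.9, 1484.1, and 813.6 without fracture, 7354.6, 6578.5, and 5013.1 at 3 days, and 5880.5, 11242.6, and 10160.4 at 1 week. It was 4558.6, 7964.5, and 8704.7 at 2 weeks, 3151.1, 5146.2, and 4645.5 at 4 weeks, and 2912.1, 4187.1, and 5426.5 at 6 weeks. Young rats peaked at 3 days, adult and older rats at 1 week, and all 15 arrays after fracture lay above the 3 without. The fold change was 6.21 at 1 week (log2 2.64 ± 0.36, limma adjusted p = 0.000195) and 2.87 at 6 weeks (log2 1.52 ± 0.36, limma adjusted p = 0.028).

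Timp3, an inhibitor that is held in the extracellular matrix, went the other way. Its signal was 212.0, 188.9, and 226.0 at 3 days in young, adult, and older rats, against 414.0, 302.8, and 532.3 without fracture. The ranges did not overlap, as was so for 2389 of all 4669 probe sets at 3 days. The decrease was 1.95-fold (log2 -0.96 ± 0.27, limma adjusted p = 0.00899). From 1 week to 6 weeks the 12 arrays lay between 214.9 and 478.7, the log2 fold change was -0.55 to -0.34, and no call was made. Timp3 was near the low end of the signals tested, and it dropped out under a filter of 500 or more on at least 3 arrays.

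Counted over the 8 genes, 5 were up-regulated at 3 days (Mmp2, Mmp13, Mmp14, Timp1, and Timp2), where 24.5% of all probe sets tested were called up. Timp3 was the 1 gene down-regulated at 3 days, where 19.7% of probe sets were called down. The same 5 were up at 1 week, where the share of all probe sets was 14.3%. Mmp9 made 6 at 2 weeks, where it was 12.8%. Mmp2, Mmp13, Timp1, and Timp2 were up at 4 weeks, against 5.05% of probe sets, and Mmp13, Timp1, and Timp2 at 6 weeks, against 3.19%. The median log2 fold change of the 8 genes was 2.19 at 3 days, 2.41 at 1 week, 2.34 at 2 weeks, 1.63 at 4 weeks, and 1.44 at 6 weeks, while the median of all 4669 probe sets stayed between -0.002 and 0.05. The arrays of a time did not overlap those without fracture for 7 of the 8 genes at 3 days, 5 at 1 week, and 6 at 2 weeks. The number was 4 at 4 weeks and 3 at 6 weeks. Of all 4669 probe sets this held for 2389, 1493, 1336, 842, and 685 at these times. These 5 comparisons share the 3 no-fracture arrays. With only the 6 arrays of the times compared in the fit, or without the adult rats, 0 of all 4669 probe sets were called at 4 weeks or at 6 weeks, these 8 genes among them.

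**Figure D3:**
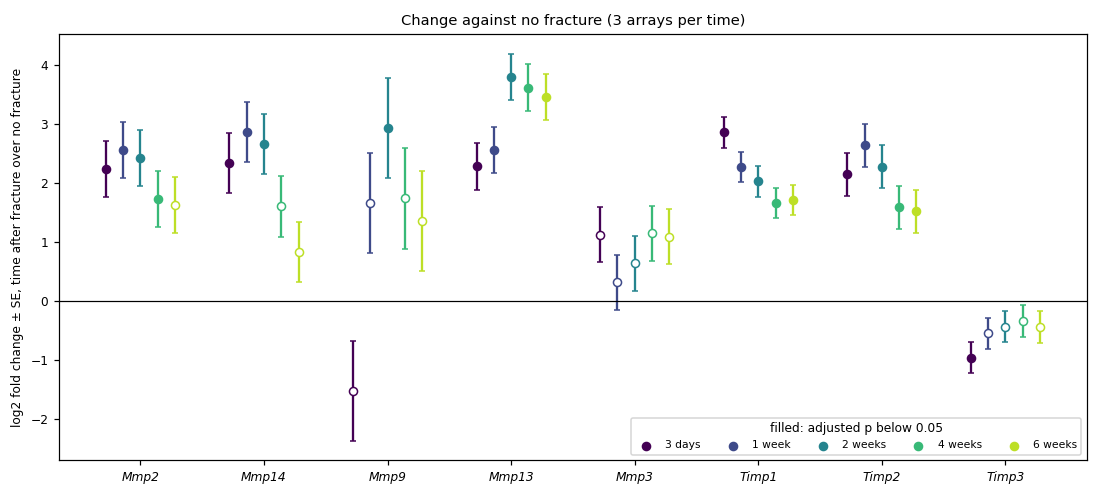
Log2 fold change of each gene at 5 times after fracture over no fracture, from limma on 18 arrays with 3 arrays per time. Bars are ± SE, filled points had an adjusted p below 0.05, and open points did not. Mmp13 kept its change from 2.28 at 3 days to 3.46 at 6 weeks, Mmp14 dropped to 0.82 at 6 weeks, and Timp3 lay below 0 at all 5 times.

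The late callus (4 and 6 weeks) was then compared with the early callus (3 days and 1 week) over 6 arrays each. Mmp13 was the 1 gene of the 8 that was higher late, where 16.4% of probe sets were called up. It averaged 8028.5 ± 1238.7 late and 4029.1 ± 2183.7 early (SD, n = 6 each; log2 1.12 ± 0.28, limma adjusted p = 0.00688). Mmp14, Timp1, and Timp2 were lower late, where 16.6% of probe sets were called down. Mmp14 averaged 2559.6 ± 1357.0 late and 5910.6 ± 1428.0 early (log2 -1.39 ± 0.36, limma adjusted p = 0.00928). Timp1 averaged 2741.1 ± 618.2 late and 5081.5 ± 1252.6 early (log2 -0.88 ± 0.18, limma adjusted p = 0.00239). Timp2 averaged 4244.8 ± 1033.9 late and 7705.0 ± 2470.2 early (log2 -0.84 ± 0.26, limma adjusted p = 0.0214). Over the 3 ages Mmp9 was 2.78-fold higher late without reaching the threshold (limma adjusted p = 0.0706), but the direction differed by age. The young arrays had 1887.5 and 6087.1 early and 1468.4 and 1167.8 late. The adult arrays had 130.3 and 2491.7 early and 3347.4 and 3123.5 late. The older arrays had 145.2 and 1758.3 early and 6332.9 and 3861.2 late. Over the same contrast 2 of 2 osteoclast, 5 of 5 neutrophil, 4 of 4 erythroid, 7 of 8 muscle, and 1 of 4 osteoblast markers tested were higher late. Lower late were 5 of 7 fibroblast and mesenchyme markers and 1 of 5 cartilage markers. Of 3 macrophage markers 1 was higher late and 2 were lower. Their part in these changes was not tested. Without the adult rats 0 of the 8 genes were called, and 420 of all probe sets, where the fit on all ages called 766 up and 775 down.

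Age was compared over the 5 arrays after fracture of each age. No gene of the 8 was called for older against young rats, where 0.15% of probe sets were called, for older against adult rats, where it was 3.73%, or for adult against young rats, where it was 0.0%. By the ordinary test of the study's methods 0 were called either, and of all probe sets 0, 3, and 0. At an unadjusted p below 0.05 there were 5 for older against young (Mmp2, Mmp3, Mmp14, Timp1, and Timp2), all higher in older rats, 2 for older against adult, and 2 for adult against young. Of all 4669 probe sets 971, 1213, and 618 passed the same limit in these 3 comparisons. The lowest adjusted p of older against young was that of Mmp3 (log2 1.48 ± 0.34, limma adjusted p = 0.0575), followed by Mmp2 (log2 0.74 ± 0.19, limma adjusted p = 0.0643). Without the older or the young 3 days array, Mmp2, Mmp3, and Timp2 were called, and so were 457 and 185 of all probe sets, against 7 with both arrays.

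At 4 and 6 weeks together Mmp3, Mmp9, and Mmp14 were up-regulated in older rats, 3 of 8 genes where 1.88% of probe sets were called up, and 0 of 8 were down-regulated, where 0.921% were called down. All 8 log2 differences were above 0, with a median of 0.80, against 0.08 for all probe sets. Mmp14 averaged 3739.2 ± 793.4 in older rats and 1137.5 ± 552.3 in young rats (SD, n = 2 each; log2 1.79 ± 0.21, limma adjusted p = 0.00726). Mmp3 averaged 690.4 ± 178.4 in older rats and 115.9 ± 5.4 in young rats (log2 2.55 ± 0.37, limma adjusted p = 0.0134). Mmp3 reached the filter of 200 on 4 older, 2 adult, and 0 young arrays, and its young signals lay close to the floor of 100, so the size of this change depends on the floor. With a floor of 200 it was 1.76 (limma adjusted p = 0.0345), and with no filter on low signals Mmp3 was not called (limma adjusted p = 0.116), nor was Mmp9 (0.21). Mmp9 averaged 5097.0 ± 1747.8 in older rats and 1318.1 ± 212.6 in young rats (log2 1.92 ± 0.37, limma adjusted p = 0.0336). For all 3 genes both older arrays lay above both young arrays, and the adult arrays lay between them at both times. Mmp13 showed little difference here (log2 0.35 ± 0.27, limma adjusted p = 0.488).

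The young 6 weeks array is the one with the low Gapdh ratio of 0.257. Without it 0 of these 3 calls remained, and likewise without the older 6 weeks array. In each of these fits 1 of all 4669 probe sets was called, against 88 up and 43 down with all arrays. The log2 differences without the young 6 weeks array were 2.52 for Mmp3, 1.96 for Mmp9, and 1.60 for Mmp14 (limma adjusted p = 0.133, 0.166, and 0.128). Without the young 4 weeks array 1 remained (Mmp14), and without the older 4 weeks array 2 (Mmp3 and Mmp14), with 53 and 23 of all probe sets called. The Mmp9 call was thus lost without any one of these 4 arrays, and also with a floor of 200 (limma adjusted p = 0.0745). Cartilage mRNA moved in the same direction. The sum of the 6 cartilage markers was 12073.4 in older rats and 2701.2 in young rats at 4 weeks, and 8501.2 in older rats and 1223.5 in young rats at 6 weeks, and 4 of 5 tested were called up. So were 3 of 7 fibroblast and mesenchyme markers, while 1 of 5 neutrophil markers was called down. The osteoclast sum was 23795.1 in older rats and 19739.7 in young rats at 4 weeks, and 22889.5 in older rats and 12971.4 in young rats at 6 weeks, with 0 of 2 called. The muscle sum was 82291.0 in older and 141704.0 in young rats at 4 weeks, and 99258.3 and 177021.0 at 6 weeks. Of 8 muscle markers 1 was called down. The erythroid sum was 42762.0 in older and 39333.7 in young rats at 4 weeks, and 28488.7 and 68187.2 at 6 weeks, with 0 of 4 called. Their part in the age differences of the metalloproteinases was not tested.

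At 1 and 2 weeks no gene of the 8 was called for older against young rats, where 0.514% of probe sets were called in either direction, and 5 had an unadjusted p below 0.05, as had 620 of all probe sets. Mmp9 and Mmp13 were the pair with lower values in older rats, at log2 -0.85 ± 0.37 and -0.91 ± 0.27 (limma adjusted p = 0.355 and 0.187). Mmp13 at 1 week was 2984.6 in the older array and 8217.3 in the young array. Timp2 was higher at 10160.4 in the older array and 5880.5 in the young array at 1 week (log2 0.86 ± 0.20 over both weeks, limma adjusted p = 0.0974). The difference between both periods was itself tested, and 0 of 8 genes were called, where 0.0% of all probe sets were. At an unadjusted p below 0.05 there were 4 genes (Mmp3, Mmp9, Mmp13, and Mmp14) and 337 of all probe sets. Mmp9 had the largest shift, 2.76 ± 0.52 on the log2 scale (limma adjusted p = 0.175), and Mmp14 shifted by 1.50 ± 0.30 (limma adjusted p = 0.175).

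**Figure D4:**
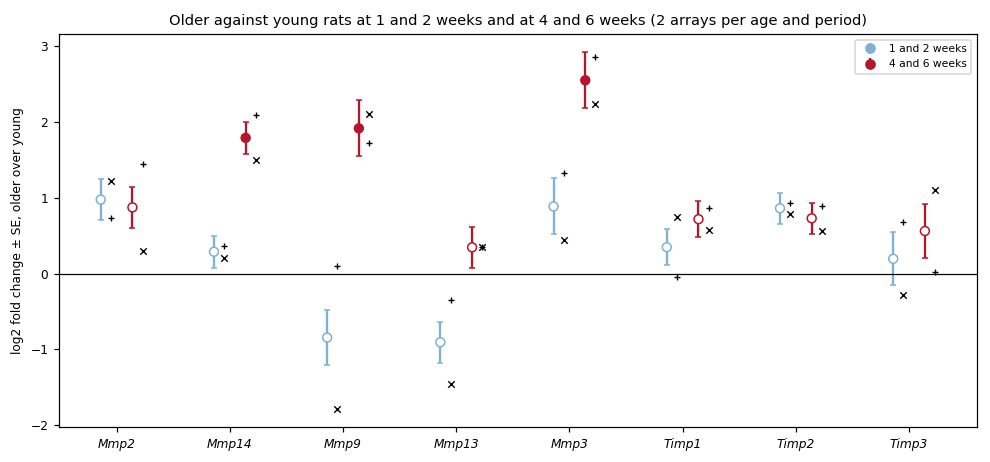
Log2 fold change of older over young rats for each gene at 1 and 2 weeks and at 4 and 6 weeks, from limma with 2 arrays per age and period. Bars are ± SE, filled points had an adjusted p below 0.05, and black marks give the single differences (x for the first week of the pair, + for the second). Mmp14, Mmp9, and Mmp3 at 4 and 6 weeks are the filled points, and Mmp9 lay at -0.85 at 1 and 2 weeks.

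Without fracture the order of the ages was the reverse for several genes. Mmp2 was 405.2 in the older array and 1988.9 in the young array, Timp2 was 813.6 in the older array and 2320.9 in the young array, and Mmp14 was 627.0 in the older array and 2048.0 in the young array. The change of the older against young difference with fracture was called for 2 of the 8 genes, where 1.58% of probe sets were called up. It was 3.03 ± 0.47 on the log2 scale for Mmp2 (limma adjusted p = 0.00467) and 2.04 ± 0.47 for Timp2 (limma adjusted p = 0.0337). Timp1 was called by its dimmer probe set (2.34 ± 0.44, limma adjusted p = 0.0142) but not by its brighter one (1.11 ± 0.39, limma adjusted p = 0.16). Each age had 1 array without fracture, so these tests rest on a single array per age and lean on the spread of the arrays after fracture. Those arrays were of time 0, so growth or aging since then cannot be told apart from fracture here. The young no-fracture array also had the highest fibroblast and mesenchyme sum without fracture, 6066.0 in older rats against 18437.7 in young rats, and the highest cartilage sum, 264.5 in older rats against 2218.0 in young rats. The part of these cells in the reversed order was not tested. The Timp2 call was lost without any one of 7 arrays, among them the young 6 weeks array. The Mmp2 call was kept in every fit that could be made with 1 array left out. Without the young or the older no-fracture array this difference cannot be fitted, so the call was not tried without either.

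The 8 genes fell into courses that can be described by the correlation of their log2 signals over the 18 arrays, which share ages and times. Mmp2, Mmp14, Timp1, and Timp2 ran together, with r of 0.83 to 0.95 between each pair. The highest was that of Mmp2 and Timp2 (r = 0.949), and Mmp14 and Timp2 had r = 0.909. Mmp13 had r of 0.52 to 0.59 with these 4 genes and 0.598 with Mmp9. Mmp9 and Timp1 were unrelated (r = 0.005). Timp3 was negative with all 4, down to -0.626 with Timp1.

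The tested probe sets of other genes most like each one by the same measure were as follows. Mmp13 was closest to Ctsk (r = 0.945), the collagen-cutting cathepsin of osteoclasts, followed by Kiaa0040 (0.924) and Cpz (0.909). Mmp9 was closest to the immunoglobulin receptor Fcgrt by 2 probe sets (0.906 and 0.894) and the chemokine receptor Ccr1 (0.901). Mmp2 was closest to Pdgfra (0.957), a receptor of mesenchymal cells, the collagen Col5a1 (0.956), and Aebp1 (0.955). Mmp14 was closest to Acan (0.959), the large proteoglycan of cartilage, Mxd4 (0.957), and Ncam1 (0.956). Timp1 was closest to Srpx (0.974), the collagen cross-linking enzyme Lox (0.968), and Metrnl (0.967), and Timp2 to Pmepa1 (0.971), the proteoglycan Bgn (0.97), and Fstl1 (0.963). The dim genes had looser neighbors, with 0.777 at most for Mmp3 (Myo1c) and 0.806 at most for Timp3 (Natd1).

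The wider protease system was read from 19 further genes that could be tested, 9 other metalloproteinases, 6 inhibitors and partners of metalloproteinases, and 4 genes of plasminogen activation. Of the 19, 11 were up-regulated and 4 down-regulated at 3 days, and 10 and 2 at 1 week and again at 2 weeks. At 4 weeks it was 6 and 1, and at 6 weeks 3 and 1. Of all 4669 probe sets, 1144 were called up and 918 down at 3 days, and 669 and 491 at 1 week. These were 598 and 386 at 2 weeks, 236 and 67 at 4 weeks, and 149 and 56 at 6 weeks. The median log2 fold change of the 19 genes was 0.83 at 3 days and 0.45 at 6 weeks. Among metalloproteinases Mmp23 averaged 1128.3 ± 198.7 at 3 days and 222.4 ± 104.0 without fracture (SD, n = 3 each; log2 2.42 ± 0.30, limma adjusted p = 3.6e-05). Mmp8, the collagenase that neutrophils store, was below 100 on 2 of the 3 arrays at 3 days and on all 3 at 1 week, against a mean of 867.4 ± 837.9 without fracture (limma adjusted p = 0.000503 at 3 days). The neutrophil markers fell with it.

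Among partners, Pcolce, which enhances the trimming of collagen precursors, averaged 3352.4 ± 565.7 at 3 days and 612.7 ± 538.7 without fracture (log2 2.83 ± 0.50, limma adjusted p = 4e-04) and was up at all 5 times. Furin, a convertase that activates the Mmp14 precursor, was down-regulated at 3 days, 1 week, 2 weeks, and 6 weeks, with 1459.6 ± 244.6 at 3 days and 2459.1 ± 1082.7 without fracture (limma adjusted p = 0.0279). Both plasminogen activators rose early. Plat averaged 817.0 ± 7.5 at 3 days and 120.0 ± 60.9 without fracture (log2 2.63 ± 0.29, limma adjusted p = 1.6e-05). Plau averaged 595.7 ± 37.0 at 3 days and 216.4 ± 19.5 without fracture (log2 1.46 ± 0.28, limma adjusted p = 0.000696). Mmp23, Plat, and Plau were lower late than early, 3 of the 19 genes, where 16.6% of all probe sets were called down. Of the 19 genes 0 were higher late, where 16.4% of all probe sets were called up. Serpine2 is an inhibitor of plasminogen activators and thrombin. It alone of the 19 genes was called up for older against young rats at 4 and 6 weeks, where 1.88% of all probe sets were. Serpine2 averaged 2730.7 ± 423.1 in older rats and 939.2 ± 429.4 in young rats (SD, n = 2 each; log2 1.61 ± 0.28, limma adjusted p = 0.0221). Calls of this comparison depended on single arrays, as given above for the metalloproteinases, and Serpine2 was not followed with an array left out.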

How the data were processed

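Affymetrix rat arrays were used. The deposited intensities are Microarray Suite 5.0 signals, brought by the authors to a common average of 500. Detection calls and the study's further independent arrays were not used here. Probe sets were named from GEO's platform annotation, with symbols updated by gene identifier. A floor of 100 was set before taking log2. Non-control probe sets that reached 200 on 3 arrays were tested with limma 3.58.1 in R 4.3.3 (eBayes with trend, two-sided). Times were fitted on 18 arrays with an age term, ages on the 15 arrays after fracture with a time term, and the fracture difference on 18 arrays. P-values were adjusted (Benjamini-Hochberg) across the 4669 probe sets and called below 0.05. Fold changes are from mean log2 signals.

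The genes and lists were chosen with earlier results of these data known. All probe sets of the 8 genes are named. Of related genes the rule took up to 4 called genes per list and comparison, those of largest change with a mean of at least 500 in the higher group, and the 3 probe sets most like each gene by Pearson r. On simulated data of 4669 genes, 41% of log2 changes of 1 and 96% of changes of 2 were recovered for 1 week against no fracture, and 61% and 97% for older against young. Unchanged genes made up 8.05% and 8.14% of what was called. The alternatives changed the floor (20 or 200), the filter (none or 500), the scaling (quantile or equal medians), or the moderation (robust). Others changed the probe sets per gene (1), the age or time term, or the arrays fitted, or left out an age or an array. Another was an ordinary t-test, the kind the study used, without the age or time term and with adjusted p-values. It had fewer arrays than the study's own t-tests. Promoters are RefSeq, GRCr8, and matched 5 of the 8 genes. Python 3.11.15 with matplotlib 3.10.9 drew the figures.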

Additional observations from a re-analysis of the deposited data

Results flagged for a closer look

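The older against young difference after fracture departed from that without fracture, by the test of that difference, for Mmp2 (3.03 on the log2 scale, limma adjusted p = 0.00467), Timp2 (2.04, adjusted p = 0.0337), and the dimmer probe set of Timp1 (2.34, adjusted p = 0.0142). Each of these tests rests on 1 no-fracture array per age.

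Mmp9 moved in opposite directions between ages at 3 days, and this difference was not tested because each age had 1 array at each time. The log2 difference from the same age without fracture was 1.00 in young rats, -1.69 in adult rats, and -3.87 in older rats.

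Mmp14 moved in opposite directions at 6 weeks, again without a test. The log2 difference from the same age without fracture was -1.46 in young rats, 1.58 in adult rats, and 2.34 in older rats, and the young 6 weeks array had the low Gapdh ratio of 0.257.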

How the results depend on the processing

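Of 826 single values under settings that left out no array, 739 kept their side of the threshold, 76 lost it, 11 gained it, and 0 reversed. A change of sign was counted as a reversal only where the value was called in either fit, and otherwise as kept. Of 1164 values with 1 array left out, 1099 kept their side of the threshold, 46 lost it, 19 gained it, and 0 reversed in this sense. The member genes called numbered 6 at 3 days and became 2 with the ordinary t-test on these arrays and 3 without adult rats. The 5 at 1 week became 0 with the t-test, which called 848 of all 4669 probe sets at 3 days, 1 at 1 week, 18 at 2 weeks, and 0 at 4 and 6 weeks. The 6 at 2 weeks became 0 with the t-test and 3 without adult rats. The 4 at 4 weeks became 2 with no filter, 0 with only the arrays of the times compared, 0 with the t-test, 0 without adult rats, 1 without older rats, and 2 to 5 with 1 array left out (6 without young rats, within 1.5 times). The 3 at 6 weeks became 0 with only the arrays compared, 0 with the t-test, 5 without young rats, 0 without adult rats, 1 without older rats, and 2 to 5 with 1 array left out. The 4 of late against early became 0 without adult rats.

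For older against young after fracture, 0 became 0 to 3 with 1 array left out, the highest without either 3 days array. Older against adult gave 0 to 2, with 2 without the older 3 days array. At 1 and 2 weeks 0 became 1 with quantile normalization and 0 to 1 with 1 array left out. At 4 and 6 weeks 3 became 1 with no filter and 0 to 3 with 1 array left out, with 0 without the young 6 weeks or the older 6 weeks array and 1 without the young 4 weeks array. The period difference gave 0 to 1, with 1 (Mmp9) without the young 2 weeks array. The 2 of the fracture difference became 1 with no filter and 1 to 3 with 1 array left out. Neither the young nor the older no-fracture array was among those left out, since the difference cannot be fitted without them. Apart from fewer arrays or more probe sets tested, the cause was not tested. The comparisons of times are paired by age through the age term, and without it the numbers of member genes called stayed at 6, 5, 6, 4, and 3. The labels give every group replicate 1 only, so no pairing by replicate number was possible. The arrays per group limit the precision, and 37.2% to 43.3% of an array's signals lay below the floor of 100, near which many Mmp3 signals lay.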
